A study of Mus musculus with 8 samples.

Results

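The genes of this report serve the glutathione and thioredoxin systems of the cell or encode other enzymes induced by NRF2. They comprise the glutathione peroxidases *Gpx3*, *Gpx1* and *Gpx4* and the glutathione supply genes *Slc7a11*, *Gclc* and *Gclm*. The rest are the NRF2 targets *Nqo1*, *Hmox1*, *Txnrd1* and *Srxn1*. The 10 genes were found by their annotated symbol among 25697 probes of a mouse bead array. They were covered by 14 probes, of which 13 passed the filter on detection, and all 10 genes were among the 9971 features tested. The set was chosen by gene function and by the leukemic and control values of these same arrays, with the higher *Gpx3* of leukemic samples already known, so the differences of the 10 genes are a description, and nothing is read from whether one of them passed a threshold.

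RNA came from mSSC-YFP, 1 stromal cell line immortalised from the spleen of a C57BL6/N mouse embryo at day 18.5 and marked with a yellow fluorescent protein. In the leukemic group this stroma was cultured with splenic B cells of adult, highly leukemic Eμ-TCL1 mice, which carry a TCL1 transgene driven in B cells and develop a disease like chronic lymphocytic leukemia (CLL), and in the control group with splenic B cells of age-matched adult mice. The labels give 48 h of culture (40 to 48 h in the protocol), stroma at passage 2 to 6, and 20 B cells per stromal cell, and the numbers of seeded cells in the study's methods make this ratio higher. Stroma was sorted away from adherent B cells, and total RNA of 4 leukemic and 4 control samples was hybridised to 1 chip. The comparison asks how the transcripts of stroma differ when the B cells beside it are leukemic. The labels do not say that replicates were separate cultures or used separate mice, so a p-value measures only the spread between these samples.

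Glutathione is a small thiol made from glutamate, cysteine and glycine. Cells import cystine, reduce it to cysteine, and join it to glutamate in the step that limits synthesis, and glutathione peroxidases then spend glutathione to reduce peroxides. The transcription factor NRF2 is held down by KEAP1 in unstressed cells, and when KEAP1 is modified by electrophiles or oxidants, NRF2 pairs with small MAF proteins on antioxidant response elements (AREs) near genes for glutathione synthesis, thioredoxin recycling, quinone reduction and heme breakdown. Bone marrow stromal cells are known to take up cystine and pass cysteine on to CLL cells.

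Sequences upstream of 4 genes are shown to set NRF2 targets with lower leukemic means (*Gclm*, *Srxn1* and *Nqo1*) beside *Gpx3*, which had the highest leukemic difference of the 10. Each run holds the 250 bases before the RefSeq start, 5′ to 3′ on the gene's strand (GRCm38.p6). Capitals mark matches, on either strand, to the ARE core TGACNNNGC, to its form TGAGNNNGC, to the AP-1 motif TGACTCA, to the TATA box TATAAA, or to the GC box GGGCGG.
Gclm, chr3:122245307-122245556, plus strand: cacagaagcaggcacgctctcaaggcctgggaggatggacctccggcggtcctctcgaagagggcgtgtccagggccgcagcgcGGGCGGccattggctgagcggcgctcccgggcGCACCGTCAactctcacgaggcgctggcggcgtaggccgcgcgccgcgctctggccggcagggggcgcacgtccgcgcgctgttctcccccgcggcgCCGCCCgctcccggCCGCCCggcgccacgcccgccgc
Srxn1, chr2:152105274-152105523, plus strand: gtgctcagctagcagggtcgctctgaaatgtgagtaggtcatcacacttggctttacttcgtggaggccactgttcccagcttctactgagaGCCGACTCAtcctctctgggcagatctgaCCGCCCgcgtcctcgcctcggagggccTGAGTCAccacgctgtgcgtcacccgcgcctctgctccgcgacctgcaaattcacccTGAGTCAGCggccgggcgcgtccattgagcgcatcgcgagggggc
Nqo1, chr8:107403206-107403455, minus strand: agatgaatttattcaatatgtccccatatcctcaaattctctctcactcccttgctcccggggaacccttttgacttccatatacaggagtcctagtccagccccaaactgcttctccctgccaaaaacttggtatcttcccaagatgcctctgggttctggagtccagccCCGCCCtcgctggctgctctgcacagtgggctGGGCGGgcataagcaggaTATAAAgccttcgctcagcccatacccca
Gpx3, chr11:54902604-54902853, plus strand: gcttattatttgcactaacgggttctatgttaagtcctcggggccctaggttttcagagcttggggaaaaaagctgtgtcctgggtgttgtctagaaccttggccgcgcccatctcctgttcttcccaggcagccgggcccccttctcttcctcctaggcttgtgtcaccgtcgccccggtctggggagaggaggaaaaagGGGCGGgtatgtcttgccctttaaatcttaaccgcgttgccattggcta
Shorter runs of 29 bases show the match of 2 more genes, with the ARE-like letters in capitals.
Slc7a11, chr3:50443692-50443720, minus strand: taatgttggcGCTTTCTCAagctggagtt
Txnrd1, chr10:82859104-82859132, plus strand: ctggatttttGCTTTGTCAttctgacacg

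RefSeq windows running from 250 bases before to 50 bases after a start were at hand for 8 of the 10 genes, 13 windows in all, and *Gclc* and *Hmox1* had none. The ARE core TGACNNNGC was in 3 of the 13 windows, 134 bases before the start of *Gclm*, 92 bases before 1 start of *Txnrd1* and 28 bases after that of *Srxn1*, and 12.4% of 32851 mouse windows held it. The form TGAGNNNGC was found 97 bases before the start of *Slc7a11* and at 158 and 45 bases before that of *Srxn1*, and 17.6% of all windows held it. At the last of these places in *Srxn1* the ARE-like letters overlap an AP-1 match, a motif present in 5.2% of all windows. Either ARE form occurred in 4 of the 13 windows, against 27.8% of all windows. The windows of *Nqo1*, *Gpx1*, *Gpx3* and *Gpx4* held neither form, and *Nqo1* had 1 TATA box (13.6% of all windows) and 2 GC boxes (35.7% of all windows). A match is only a match of letters in a short window, and AREs that lie outside it were not looked for.

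Between 13504 and 13938 probes passed detection on an array, at median signals of 67.2 to 90.2, and with 4 arrays per group precision is limited. Of 13 fibroblast markers 12 had a probe, 11 of these were detected on all 8 arrays, and the spleen mesenchyme factor *Tlx1* was detected on 0. Leukemic replicate 4 stood apart, with correlations across features of 0.955 to 0.970 with the other arrays, against 0.984 to 0.995 among the other 7. Markers of other cell types moved with it. Of 14 B cell markers with a probe, 7, 8, 8 and 11 were detected on leukemic replicates 1 to 4 and 6 on every control array, and their summed signal was 1317 to 7501 on leukemic arrays against 928 to 1244 on control arrays. *Cd79b*, a subunit of the B cell receptor, and *Mzb1*, an endoplasmic reticulum protein of marginal zone B cells and plasma cells, were higher by 1.68 ± 0.51 and 2.40 ± 0.86 (log2, SE), and by 1.09 and 1.46 without leukemic replicate 4. *Pax5* and *Ms4a1* were detected on 0 arrays. The summed signal of pan-leukocyte markers was 10381 on leukemic replicate 4, against 3376 to 6018 on the other 7 arrays. *Ptprc* and *Lcp1* of that list were detected on 0 arrays. For myeloid markers the sum was 3973 against 1138 to 1955. The lysozymes *Lyz1* and *Lyz2* were higher by 1.06 ± 0.39 and 1.11 ± 0.40, and by 0.66 and 0.70 without leukemic replicate 4. *Cd14* gave 0.19 ± 0.15 and *Clec4e* -0.05 ± 0.21. The myeloid markers *Adgre1*, *Itgam*, *Fcgr3* and *Tyrobp* were detected on 0 arrays. The summed signal of endothelial markers was lower on leukemic replicate 4, at 1040 against 1352 to 2336. In this list *Flt1* was the bright gene, at 8.61 (log2) on that array and 10.17 to 10.51 on control arrays. Of 5 endothelial markers tested 3 had higher and 2 lower leukemic means, with *Plvap* at 0.22 ± 0.19 and *Flt1* at -0.59 ± 0.32. *Cdh5* and *Emcn* were detected on 0 arrays. The part of these cells in the values below was not tested. Fewer cells of a type and less RNA per cell cannot be told apart in such sorted bulk samples.

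The 10 genes did not move one way. The leukemic mean was higher for 4 of them (*Gpx3*, *Gpx1*, *Gpx4*, *Gclc*) and lower for 6 (*Slc7a11*, *Gclm*, *Nqo1*, *Hmox1*, *Txnrd1*, *Srxn1*), with a median log2 difference of -0.05, against 0.0028 over all 9971 features, of which 50.6% had a higher leukemic mean. As a description of the selection, the rank product (q below 0.05), the method the study names, counted 1 of the 10 as higher in leukemic samples, *Gpx3*, beside 0.371% of all features, and 0 as lower, beside 0.01%. The limma test with Benjamini-Hochberg adjustment called 0 of the 10 and 0% of all features, while 3.9% of all features were higher and 3.69% lower at an unadjusted p under the same threshold (389 and 368 features). Leukemic replicate 4 was the highest or lowest of the 8 arrays for 8 of the 10 genes, beside 54.4% of all features. All log2 values below are normalized signals on 1 scale per probe, differences are leukemic minus control with the SE from limma, and a level is not set against that of another probe.

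**Figure D1:**
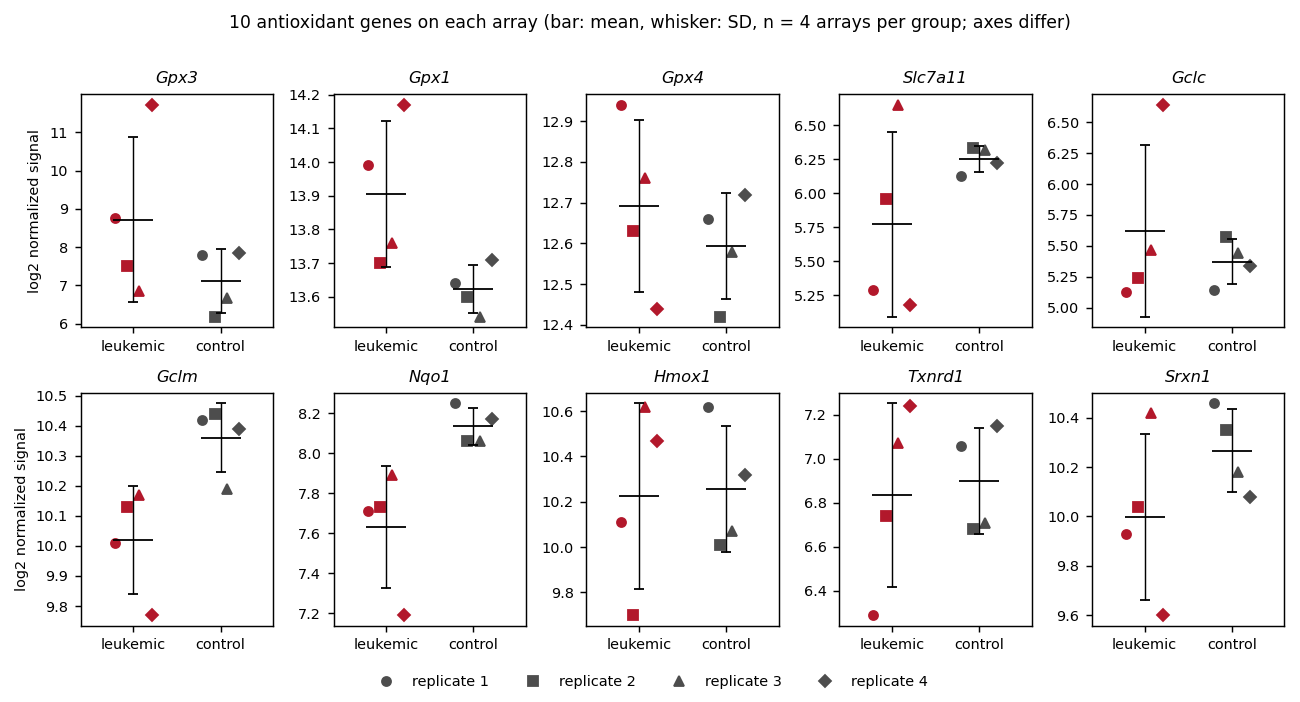
Log2 normalized signal (y axis, a range of its own in each panel) of the 10 genes on each leukemic (left, red) and control (right, grey) array, with marker shapes for replicates 1 to 4, the mean as a bar and the SD as a whisker (n = 4 each). The groups are apart for *Gclm* and *Nqo1* and overlap for the other 8 genes, and *Gpx3* of leukemic replicate 4 lies apart at 11.72.

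*Gpx3*, the secreted glutathione peroxidase of plasma, made largely by the kidney, had the largest difference of the set. Its log2 signal was 8.77, 7.52, 6.85 and 11.72 on leukemic replicates 1 to 4, against 7.79, 6.18, 6.67 and 7.86 on control replicates 1 to 4. Leukemic replicate 4 was far above every other array, leukemic replicate 1 lay above the control arrays, and leukemic replicates 2 and 3 lay among them. In signal before normalization, leukemic replicate 4 gave 4087.4, against 152.4 to 407.1 on the other leukemic arrays and 108.5 to 264.0 on the control arrays. The means were 8.72 ± 2.16 in leukemic and 7.12 ± 0.83 in control samples (SD, n = 4 each), a difference of 1.59 ± 0.87 or 3.01-fold. Without leukemic replicate 4 the difference was 0.59 ± 0.46, and *Gpx3* no longer passed the rank product. It also missed the threshold without leukemic replicate 1 (1.57), without control replicate 2 (1.28), and in the values the authors had normalized (0.99).

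*Gpx1*, the cytosolic and mitochondrial peroxidase that uses glutathione against hydrogen peroxide, also had a higher leukemic mean, with a smaller difference than *Gpx3*. Leukemic arrays gave 13.99, 13.70, 13.76 and 14.17 and control arrays 13.64, 13.60, 13.54 and 13.71 for replicates 1 to 4. Only leukemic replicate 2 and control replicate 4 crossed, and barely, so that the groups touched at their edge. The difference was 0.28 ± 0.11, a 1.22-fold higher leukemic mean, and 0.19 ± 0.09 without leukemic replicate 4. Before normalization the signals did not overlap, with 14221.1 to 19546.7 on leukemic arrays and 10655.3 to 13599.0 on control arrays. Those signals also carry the brightness of each array, whose median signal was 71.2 to 90.2 on leukemic and 67.2 to 79.5 on control arrays.

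*Gpx4* reduces lipid peroxides within membranes and is the enzyme whose loss sets off ferroptosis. Its log2 signal was 12.94, 12.63, 12.76 and 12.44 on leukemic arrays and 12.66, 12.42, 12.58 and 12.72 on control arrays. The groups overlapped over most of their range, with replicate 4 lowest within the leukemic group, and the difference was 0.10 ± 0.12, or 0.01 to 0.18 with 1 array left out (0.18 without leukemic replicate 4). A second *Gpx4* probe, much nearer to background, gave -0.05 ± 0.17, so the probes differed in sign and both differences lay within their SE.

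*Slc7a11*, the cystine-importing chain of the xc- antiporter and a target of NRF2 and ATF4, gave log2 signals of 5.29, 5.96, 6.65 and 5.18 in leukemic samples and 6.13, 6.33, 6.32 and 6.22 in control samples. Control arrays lay close together, whereas leukemic replicate 3 was above all of them and the other leukemic arrays below. The means were 5.77 ± 0.68 and 6.25 ± 0.09 (leukemic and control, SD, n = 4 each), a difference of -0.48 ± 0.29. The signal was dim, at 69.2 to 136.9 on leukemic and 89.4 to 121.7 on control arrays, and the authors' normalized values gave -0.07. The difference was -0.28 without leukemic replicate 4.

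The 2 subunits of glutamate-cysteine ligase, the enzyme of the limiting step, differed in sign. *Gclm*, the modifier subunit that raises the activity of the enzyme, gave 10.01, 10.13, 10.17 and 9.77 on leukemic arrays and 10.42, 10.44, 10.19 and 10.39 on control arrays. All leukemic arrays were below all control arrays, the nearest being both replicates 3, and the difference was -0.34 ± 0.12, a 1.26-fold higher mean in control samples. *Gclc*, the catalytic subunit, gave 5.13, 5.24, 5.47 and 6.64 on leukemic arrays and 5.14, 5.57, 5.44 and 5.34 on control arrays. Apart from leukemic replicate 4 its values lay in 1 narrow band, and the difference of 0.25 ± 0.30 turned to -0.09 without that array. *Gclc* was dim, and leukemic replicate 1 missed the detection threshold with a detection p of 0.0514, so that it was detected on 7 of 8 arrays.

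*Nqo1*, the quinone reductase often used as a readout of NRF2, had the lowest difference of the 10. Leukemic arrays gave 7.71, 7.73, 7.89 and 7.19, against 8.25, 8.06, 8.06 and 8.17 on control arrays. Every leukemic array was below every control array, and replicate 4 was the lowest. The means were 7.63 ± 0.31 in leukemic and 8.14 ± 0.09 in control samples (SD, n = 4 each), a difference of -0.51 ± 0.17 or a 1.42-fold higher mean in control samples. It was -0.36 without leukemic replicate 4 and -0.23 in the authors' normalized values. *Gclm* and *Nqo1* were thus the 2 of 10 genes with groups apart and the leukemic group lower, beside 2.31% of all features, and 0 of 10 had the leukemic group apart and higher, beside 2.21%. For both, the signals before normalization overlapped (215.5 to 287.2 on leukemic and 267.5 to 321.3 on control arrays for *Nqo1*, 916.8 to 1376.3 on leukemic and 1073.6 to 1374.2 on control arrays for *Gclm*).

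*Hmox1*, heme oxygenase, which breaks heme down to biliverdin, iron and carbon monoxide and also answers to BACH1, showed no such separation. Leukemic arrays gave 10.11, 9.70, 10.62 and 10.47 and control arrays 10.62, 10.01, 10.07 and 10.32. The difference was -0.03 ± 0.20, or -0.11 without leukemic replicate 4, and its sign turned in 4 of 17 alternatives. *Txnrd1*, the cytosolic thioredoxin reductase, a selenoprotein, gave 6.29, 6.74, 7.07 and 7.24 on leukemic and 7.06, 6.68, 6.71 and 7.15 on control arrays. Leukemic replicate 1 was its lowest array and leukemic replicate 4 its highest. The difference was -0.07 ± 0.22, -0.20 without leukemic replicate 4 and 0.11 without leukemic replicate 1.

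*Srxn1*, sulfiredoxin, which restores overoxidised peroxiredoxins, gave 9.93, 10.04, 10.42 and 9.60 on leukemic arrays and 10.46, 10.35, 10.18 and 10.08 on control arrays. Leukemic replicates 1, 2 and 4 were below every control array and leukemic replicate 3 lay among them. The difference was -0.27 ± 0.17, and -0.14 without leukemic replicate 4. The other *Srxn1* probes gave -0.21 ± 0.18 and -0.23 ± 0.14, so all 3 probes had lower leukemic means, and each difference lay within 2 SE of 0.

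**Figure D2:**
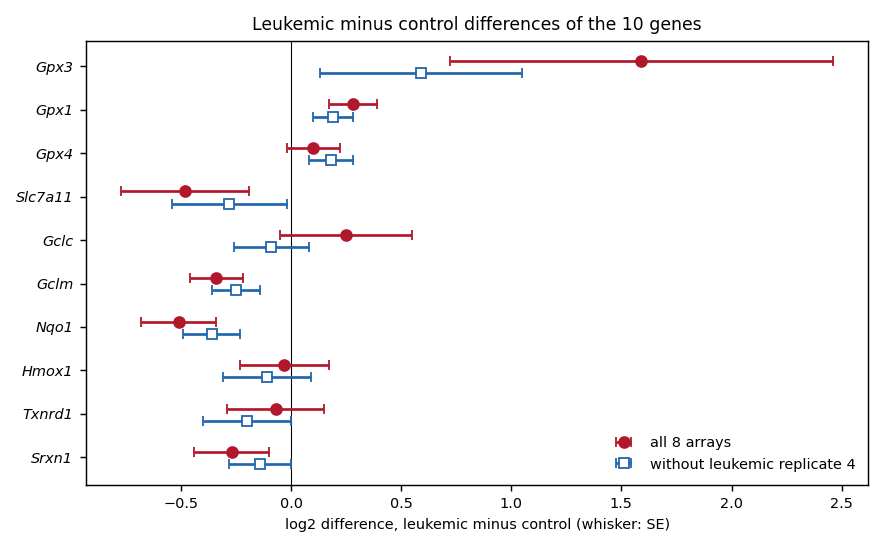
Log2 difference, leukemic minus control (x axis), of the 10 genes (y axis) with all 8 arrays (red circles) and without leukemic replicate 4 (blue open squares), with the SE as whiskers. Without that array *Gpx3* moved to 0.59 and *Gclc* to -0.09, and *Nqo1* and *Gclm* stayed lower at -0.36 and -0.25.

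Across the 8 arrays some of the genes varied together, in part through leukemic replicate 4. *Slc7a11*, *Gclm*, *Nqo1* and *Srxn1* correlated with each other at Pearson's r of 0.75 to 0.95 over 8 arrays (6 pairs). Over the 7 arrays without leukemic replicate 4 the range was 0.51 to 0.88. These 4 targets, and the pair of *Gpx3* and *Gpx1*, were set apart with their values on these arrays known. Their r values are therefore no evidence for such groups. *Gpx3* and *Gpx1* correlated at 0.92 (0.78 over 7 arrays), and against the 4 targets they gave -0.87 to -0.78 (-0.81 to -0.29 over 7 arrays). *Gpx4* gave -0.09 with *Gpx3* and 0.11 with *Gpx1* over 8 arrays, and 0.84 and 0.89 over 7. *Txnrd1* gave -0.06 to 0.19 with the 4 targets over 8 arrays and 0.58 to 0.74 over 7. *Gclc* gave 0.70 with *Gpx3* over 8 arrays and -0.91 over 7, so that these relations changed with 1 array. *Hmox1* and *Txnrd1* gave 0.65 over 8 arrays and 0.62 over 7. The points share arrays, normalization and group, so these values describe the arrays only. Leukemic replicate 4, with the highest B cell marker mean, was lowest for *Slc7a11*, *Gclm*, *Nqo1* and *Srxn1*. The same array was highest for *Gpx3*, *Gpx1*, *Gclc* and *Txnrd1*, and neither for *Gpx4* and *Hmox1*. The mean log2 signal of 6 B cell markers was 6.92, 6.69, 6.44 and 9.07 on leukemic arrays and 5.81, 5.82, 6.29 and 5.98 on control arrays. *Gpx3* stood in the same order as this mean on the leukemic arrays but not on the control arrays, where replicate 3 had the highest mean and the second lowest *Gpx3* and replicate 1 the lowest mean and the second highest *Gpx3*.

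**Figure D3:**
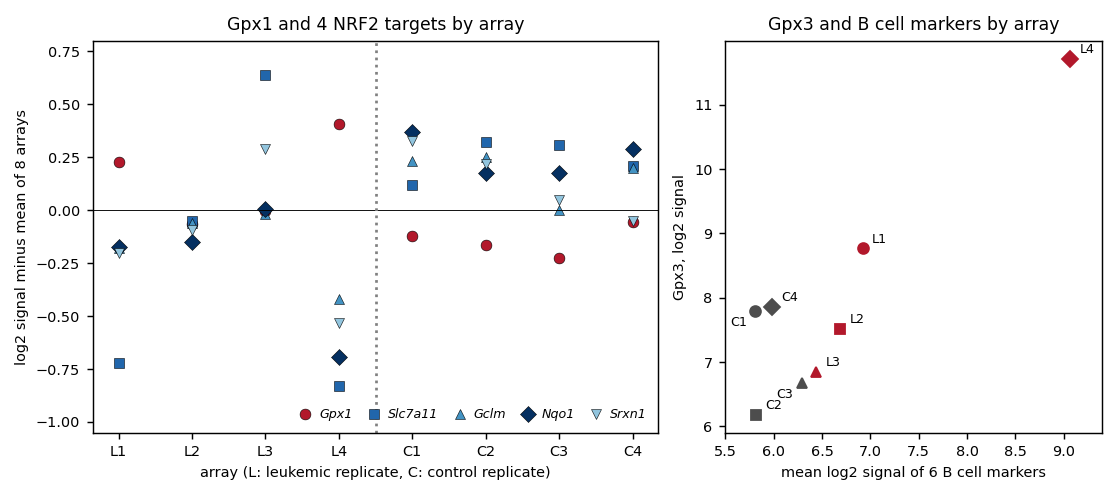
Left, log2 signal minus the mean of the 8 arrays (y axis) for *Gpx1*, *Slc7a11*, *Gclm*, *Nqo1* and *Srxn1* on leukemic (L1 to L4) and control (C1 to C4) arrays. Right, log2 signal of *Gpx3* against the mean log2 signal of 6 B cell markers, 1 point per array, where L4 lies apart at 11.72 and 9.07.

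Of all features with a symbol, those most like each gene over the 8 arrays were named by their Pearson's r. For *Gpx3* they were *H6pd*, the hexose dehydrogenase that makes NADPH in the endoplasmic reticulum, *Rnase4*, a secreted ribonuclease, *Snx18*, a sorting nexin, *Serping1*, the C1 inhibitor of complement, and *Adcy1*, an adenylate cyclase, each at 0.98 and at 0.90 to 0.94 over the 7 arrays without leukemic replicate 4. The feature most like *Gpx1* was *Zfp646* (0.99), that of *Gpx4* was *Med12* (0.99), and that of *Slc7a11* was *Emg1* (0.96), a factor of small ribosomal subunit assembly. *Gclm* was closest to *Noc3l* (0.97), *Nqo1* to *D10Wsu102e* (0.97), *Srxn1* to *Vcp* (0.97), *Txnrd1* to *Rpl22l1* (0.98) and *Hmox1* to *H2-M10.1* (0.95). *Gclc* was closest to *Cytip* at 0.98, a gene on the list of pan-leukocyte markers, and at 0.77 without leukemic replicate 4. The mean log2 signal of 6 such markers was 7.54, 7.65, 7.67 and 9.37 on leukemic and 7.21, 7.13, 7.39 and 7.45 on control arrays, and its part in the *Gclc* value was not tested.

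The wider pathway was read from 9 lists of other genes, 154 in all, of which 140 had a probe and 123 were tested. Of the 123 genes 0 passed the rank product in either direction (smallest q 0.12) and 0 passed limma (smallest adjusted p 0.639). At an unadjusted limma p under 0.05 there were 11 with higher and 5 with lower leukemic means, 16 of 123, beside 7.59% of all features. The leukemic mean was higher for 68 and lower for 55, with a median log2 difference of 0.02, and the groups were apart for 6 higher and 2 lower genes, beside 2.21% and 2.31% of all features. Of these, *Gstm4* (0.47 ± 0.15) and *Gsta4* (0.41 ± 0.16, or 0.26 without leukemic replicate 4), both glutathione transferases, were named after their values were seen. So were the 2 lower ones, *Glrx3*, a glutaredoxin, at -0.28 ± 0.10, and *Selenof*, a selenoprotein of the endoplasmic reticulum, at -0.15 ± 0.08. None of the genes named in the following paragraphs passed either test, and their values are given as measured.

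Genes that make and recycle glutathione split, with 4 higher and 3 lower of 7 tested and a median of 0.04. *Oplah*, the oxoprolinase that returns glutamate to synthesis, gave 7.23, 6.99, 6.87 and 7.46 on leukemic and 6.23, 6.28, 6.98 and 6.35 on control arrays, a difference of 0.68 ± 0.20, and only control replicate 3 lay within the leukemic range. The gamma-glutamyl transferases *Ggt5* and *Ggt7* gave 0.43 ± 0.40 and -0.13 ± 0.20, and 0.24 and 0.05 without leukemic replicate 4. Of 8 genes for cystine and cysteine supply 5 were higher and 3 lower, and their median of 0.15 became -0.02 without leukemic replicate 4. *Mpst*, which moves sulfur from mercaptopyruvate, gave 8.81, 8.33, 8.54 and 8.47 on leukemic and 8.25, 7.55, 7.88 and 8.15 on control arrays, with the groups apart and a difference of 0.58 ± 0.18. *Csad*, of taurine synthesis, gave 0.39 ± 0.21 (0.22 without leukemic replicate 4) and the neutral amino acid carrier *Slc1a5* gave -0.34 ± 0.20.

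Enzymes that use glutathione were the longest list, with 19 higher and 10 lower of 29 and a median of 0.03. The glutathione transferases *Gstt1* and *Gstm6* and the microsomal *Mgst1* had the largest differences, all higher on average. *Gstm6* gave 6.96, 6.69, 6.87 and 7.43 on leukemic and 6.26, 6.56, 6.56 and 6.60 on control arrays, apart by group, at 0.49 ± 0.18. *Gstt1* gave 0.62 ± 0.20 and *Mgst1* 0.56 ± 0.21. Without leukemic replicate 4 all were smaller, at 0.47 for *Gstt1*, 0.34 for *Mgst1* and 0.34 for *Gstm6*. *Gstm6* belongs to a family of close copies whose probes can share transcripts, so its value may include its neighbours.

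The thioredoxin and peroxiredoxin list held 8 higher and 7 lower genes of 15, with a median of 0.01. *Prdx3*, the peroxiredoxin of mitochondria, gave 10.61, 10.82, 10.64 and 10.56 on leukemic and 11.14, 11.15, 10.81 and 10.75 on control arrays, at -0.31 ± 0.12 with the groups overlapping. *Sesn2*, a stress-induced sestrin, gave -0.30 ± 0.17, and *Msrb1*, a methionine sulfoxide reductase, gave 0.20 ± 0.13. Of 6 scavengers of superoxide and peroxide 4 were higher and 2 lower. Catalase, *Cat*, gave 8.29, 8.44, 8.30 and 8.71 on leukemic and 8.89, 8.90, 8.53 and 8.85 on control arrays, at -0.36 ± 0.14, while metallothionein *Mt1* and the copper chaperone *Ccs* gave 0.20 ± 0.09 and 0.16 ± 0.09.

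NRF2 itself and its regulators were 3 higher and 7 lower of 10, with a median of -0.06. *Nfe2l2*, the gene of NRF2, gave 8.33, 8.07, 8.06 and 8.21 on leukemic and 8.37, 8.75, 8.40 and 7.96 on control arrays, overlapping, at -0.20 ± 0.17. *Bach1*, the repressor that competes for AREs, gave -0.17 ± 0.21. The small MAF gene *Mafk* gave 0.20 ± 0.47 with all arrays and -0.28 without leukemic replicate 4, where it reached 7.35. Of 21 other NRF2 targets 13 were higher and 8 lower, with a median of 0.04. The median of the 10 genes was -0.05, but that set also holds the glutathione peroxidases and was chosen with its values known. *Cbr1*, a carbonyl reductase, gave 10.21, 10.09, 10.29 and 9.99 on leukemic and 9.96, 9.52, 9.72 and 9.93 on control arrays, apart by group, at 0.36 ± 0.13. *Idh1*, which makes NADPH from isocitrate in the cytosol, gave -0.34 ± 0.14 and the exporter *Abcc1* gave -0.25 ± 0.18.

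The products of *Gpx1*, *Gpx3*, *Gpx4* and *Txnrd1* are selenoproteins, made with selenocysteine. Of 16 other selenoprotein and selenocysteine synthesis genes 9 were higher and 7 lower, with a median of 0.02. *Selenom*, of the endoplasmic reticulum, gave 8.91, 9.0, 8.82 and 8.99 on leukemic and 8.51, 7.97, 8.44 and 8.79 on control arrays, apart by group, at 0.50 ± 0.17. *Selenop*, the secreted carrier of selenium, gave 0.55 ± 0.29 with all arrays and 0.27 without leukemic replicate 4. *Secisbp2*, which recruits the selenocysteine machinery to messages, gave -0.42 ± 0.17. Of 11 genes of lipid peroxidation and ferroptosis 3 were higher and 8 lower, with a median of -0.09. The transferrin receptor *Tfrc* gave -0.36 ± 0.20, the acyl-CoA ligase *Acsl4* gave -0.20 ± 0.17, and the lipoxygenase *Alox12* gave -0.21 ± 0.26. Without leukemic replicate 4 *Acsl4* was at -0.10 and *Alox12* at 0.07. *Alox12* was dim, at log2 signals of 4.56 to 5.89 on leukemic and 5.48 to 5.77 on control arrays.

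**Figure D4:**
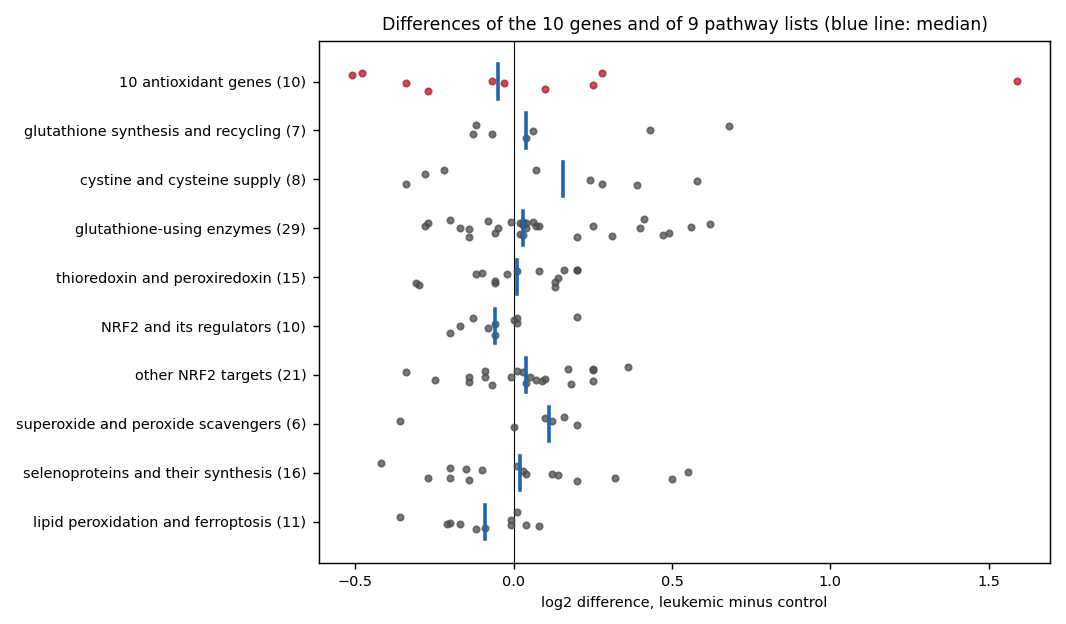
Log2 difference, leukemic minus control (x axis), of each gene (points, spread vertically for sight) of the 10 antioxidant genes and of 9 pathway lists (y axis, genes tested in brackets), with the median as a blue line. List medians lie between -0.09 and 0.15, and *Gpx3* at 1.59 is the point farthest from 0.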

How the data were processed

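The deposited signal file holds, per array, a linear intensity for each of 25697 probes that was not normalized between arrays. It also holds a detection p-value per probe and array, deposited by the authors as the scanner software gave it. The authors also deposited a log2 matrix that they normalized with lumi, which served as an alternative. Its background settings are not given in the sources used here.

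Signals were background-corrected with the neqc method of limma 3.58.1 in R 4.3.3 (background inferred from the detection p-values, offset 16), quantile normalized and put on a log2 scale. Probes with a detection p below 0.05 on at least 4 of 8 arrays were kept, 13732 in all. Of all probes 23978 had 1 gene symbol and 1719 were unnamed. Per gene the probe with the highest mean over the 8 arrays was used, which gave 9971 features, 9174 with a symbol. Leukemic and control arrays were compared with limma (trend, 2-sided, Benjamini-Hochberg) and with a 2-class unpaired rank product over 16 array pairs (q below 0.05, 100 permutations), written anew after the method that the study names. Both were tested on simulated data.

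The 10 genes and all lists were chosen with earlier results of these data known. Named are all 10 genes with every probe, the 3 largest differences per pathway list, the feature most like each gene (5 for *Gpx3*), and the 2 B cell markers with the largest difference. Markers of 7 cell types were read. Of those tested, 5 of 6 B cell, 2 of 6 pan-leukocyte and 2 of 4 myeloid markers (*Lyz1* and *Lyz2*) passed the rank product as higher. The share over all features was 0.371%. Passing as higher were 0 of 2 erythroid, 0 of 5 endothelial, 0 of 1 T and NK cell and 0 of 11 fibroblast markers. Only markers that passed the detection filter were tested, which for B cells were 6 of 14 with a probe. The B cell marker tested but not called, *Ebf1*, gave -0.17 ± 0.15. Alternatives changed the background correction, scaling, offset, filter, probe choice, array weights, replicate block and the arrays left out. Promoter windows came from RefSeq (GRCm38.p6).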

Additional observations from a re-analysis of the deposited data

Results flagged for a closer look

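A second *Nqo1* probe, detected on 0 of 8 arrays and so left out of every comparison, had its lowest leukemic array apart from the other leukemic arrays, with a gap of 0.906 of the group's range, above Dixon's critical value for 4 samples. Among 28 groups of 4 arrays looked at over the probes of the 10 genes it was the only such case, and chance alone gives about 1 in 20.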

How the results depend on the processing

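The number of features with q below 0.05 in the rank product depended on the processing. There were 37 higher in leukemic samples, and this became 10 with the authors' normalized values, 24 with no background correction, 58 with no filter, 23 with an offset of 50, and 6 to 41 when 1 array was left out (6 without leukemic replicate 4, 14 without control replicate 2 and 14 without control replicate 4, 18 without control replicate 1, 19 without leukemic replicate 1). The count of lower features, 1 (*Il18rap*, named after its value was seen), became 0 with all probes as features, 5 with the authors' values, 9 with no filter, 2 with 1000 permutations (added after seeing the data), and 0 to 12 when 1 array was left out. The limma test gave 0 calls in all 17 alternatives run. The median of the cystine and cysteine supply list ranged from -0.02 (without leukemic replicate 4) to 0.25, against 0.15. *Gpx3* kept its sign in all 17 and passed the rank product in 12 of 16. With array weights, where the rank product was not run, the *Gpx3* difference was 0.60, against 1.59. Leukemic replicate 4 had a weight of 0.236 there. *Gclc* turned its sign in 1 alternative, *Hmox1* in 4 and *Txnrd1* in 2, and the other 7 genes in 0. The cause of these changes was not tested.

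Same-numbered arrays were compared as pairs. Their deviations from the group means correlated at 0.252, 0.302, 0.195 and 0.031 for replicates 1 to 4, and replicates 1 to 3 correlated best with their own number, but the numbers were not taken to pair the samples. With the replicate block the rank product gave 45 features higher and 17 lower, limma gave 0, and none of the 10 genes other than *Gpx3* was called. The dim signals of *Slc7a11* and *Gclc* limit what their values can show. The same limit holds for dim genes of the pathway lists, such as *Alox12*, *Mafk*, *Slc1a5* and *Abcc1*.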
